A study of Drosophila melanogaster with 76 samples.

Results

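The replication-dependent histone genes of Drosophila melanogaster encode the bulk core histones H2A, H2B, H3 and H4 and the linker histone H1, which package newly made DNA in S phase. The members were the genes of the dm6 Release 6 table whose symbols begin with His1:, His2A:, His2B:, His3: or His4:. These were 111 of 14238 genes, with 23 His1, 23 His2B, 20 His2A, 22 His4 and 23 His3 copies. All 111 lay in a single cluster on chromosome arm 2L, from base 21416953 to base 21541681, a span of 124.7 kb.

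Histone genes of this kind lie in tandem repeats, lack introns and give messages that end in a stem-loop instead of a poly(A) tail. The His2A and His2B genes of a unit share a divergent promoter region, as do the His3 and His4 genes, while His1 stands alone. Their transcription and 3′ end processing take place in a nuclear compartment, the histone locus body, where the cleaving enzyme is Cpsf73, a relative of IntS11. IntS11 is the endonuclease of Integrator, which cuts nascent RNA of Pol II at small nuclear RNA genes and near promoters.

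ChIP-seq peak lists from wild-type and mutant animals were compared. Embryos were labelled 1–1.5 h or 2.5–3 h, and 48AEL stood in the titles of the larval samples. In embryos the antibodies recognised IntS11 (only its wild-type lists were used here), the early-embryo DNA-binding factors Zelda and GAF, RNA polymerase II (Pol II) and a form named pSer5, taken here as Pol II phosphorylated on serine 5. In larvae only Pol II was mapped, in wild type and in animals labelled ZygoticMutant.

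Each of the 20 groups had 2 lists, so 40 of the 76 samples were used, and the other 36 were not analysed here. The unused samples included further wild-type and mutant Pol II samples of both embryo stages, labelled for a rescue experiment. In embryos, titles of either genotype for Zelda, GAF, Pol II and pSer5 carried the words IntS11 mislocalized, so genotype was read from the words WT and Mutant. The allele, the driver of any transgene, the number of animals pooled and whether the lists of a group came from separate collections were not given in the sources used here. The p-values therefore measure only the spread between lists. With 2 lists against 2, a two-sided exact permutation test cannot go below p = 0.333, so values per list lead throughout and no difference in covered length could pass 0.05.

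The lists held positions without heights or reads, so depth was unknown. Lists held 1276 to 12202 peaks. The shortest peak, which was close to the smallest gap a list could show, ranged over 249 to 328 bp among wild-type and 208 to 261 bp among mutant embryo lists and 236 to 242 bp in larval lists. A gap between peaks can thus be resolved in a mutant list and bridged in a wild-type one. The histone copies are also nearly identical, so reads cannot be placed with certainty among them, and no input library was used here. Copy number in the animals was thus not corrected for, which limits every comparison of the locus with other windows and genes.

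The cluster was regular. With rising coordinate the order of a unit was His1, His2B, His2A, His4, His3, and 19 of the 23 units, counted from the His1 copies, held all 5 types. The distance from one His1 start to the next had a median of 5045 bp and was within 50 bp of it in 16 of 22 cases. Genes made up 55.1% of the locus. The space between His2B and His2A, the divergent promoter region of that pair, measured 128 bp at the median, and that between His4 and His3 measured 183 bp. The space from His3 to the His1 of the next unit was the longest of the regular ones, at 1182 bp. A single wide space of 10336 bp, from 21440716 to 21451051, interrupted the array. Its inner 9242 bp held no peak in any of the 40 lists, and why was not tested.

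**Figure D1:**
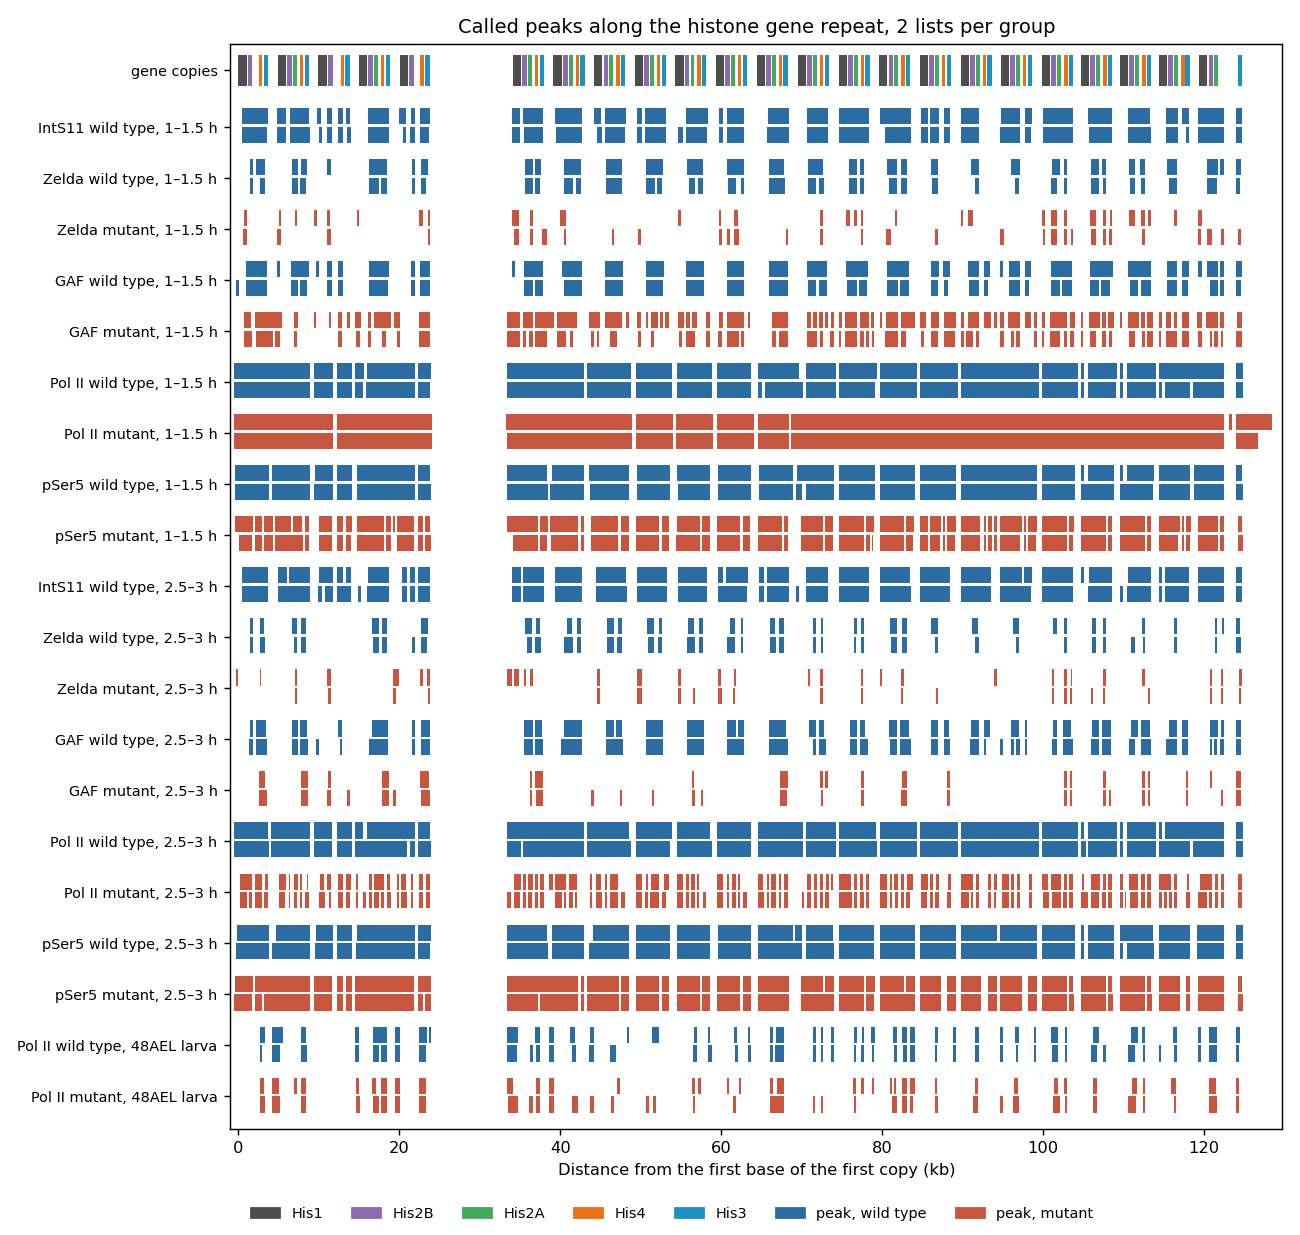
Called peaks (bars) along the locus in each of the 40 lists, with 2 rows per group and the gene copies by type on top. The x axis is the distance from the first base of the first copy in kb. Pol II and pSer5 lists of wild-type embryos formed blocks of whole units. IntS11 blocks left most of the space between His3 and the next His1 free, and Zelda and GAF marked short stretches inside units. No bar enters the middle of the wide space.

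IntS11 occupied the histone repeat in wild-type embryos at both stages. At 1–1.5 h the peaks covered 69.9 kb of the locus in replicate 1 and 68.2 kb in replicate 2. These peaks held 7.02% and 7.50% of the whole covered length of the lists, which had only 1410 and 1276 peaks. In the later embryos the peaks covered 78.8 and 80.5 kb, then 1.41% and 1.27% of the covered length of far longer lists.

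The windows around the locus held far less IntS11. Among 1098 genome windows as long as the locus it ranked first for IntS11 coverage in all 4 lists. The windows of the same length next to it held between 0.494 and 1.67 kb of IntS11 peaks at 1–1.5 h, and between 3.90 and 12.1 kb at 2.5–3 h. Covered length at the locus was higher by 10.6 kb at the later stage, without overlap of the lists (two-sided exact permutation p = 0.333, n = 2 lists per stage).

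Nearly every copy carried IntS11. A copy counted as bound when peaks of both lists of a group overlapped it by at least 1 bp. In the earlier embryos 104 of 111 copies, or 93.7%, were bound, against 5.05% of all genes. The bound copies were 19 of 23 His1, all 23 His2B, all 20 His2A, 20 of 22 His4 and 22 of 23 His3. Later, 110 copies were bound, against 33% of all genes. The exception, His1:CG33807 (2L, 21431963 to 21432985), had a peak in replicate 2 alone.

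Within the unit, IntS11 peaks lay over the core histone genes and thinned over His1. The space between His2B and His2A was fully covered in all 4 lists. His2A copies had 98.6% ± 0.366 of their length under peaks at 1–1.5 h (SD, n = 2 lists), His4 copies 86.0% ± 2.90 and His3 copies 81.1% ± 1.38. His1 copies had 54.3% ± 2.17. The long space between His3 and the next His1 was almost free, with 4.89% ± 0.517. In the later lists His1 copies had 69.6% ± 0.619 and that long space 6.16% ± 0.975. The commonest IntS11 peak at that stage ran from His1 to His3 of 1 unit, in 13 of 35 peaks of replicate 1 and 15 of 34 of replicate 2, with median lengths of 3690 and 3697 bp.

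**Figure D2:**
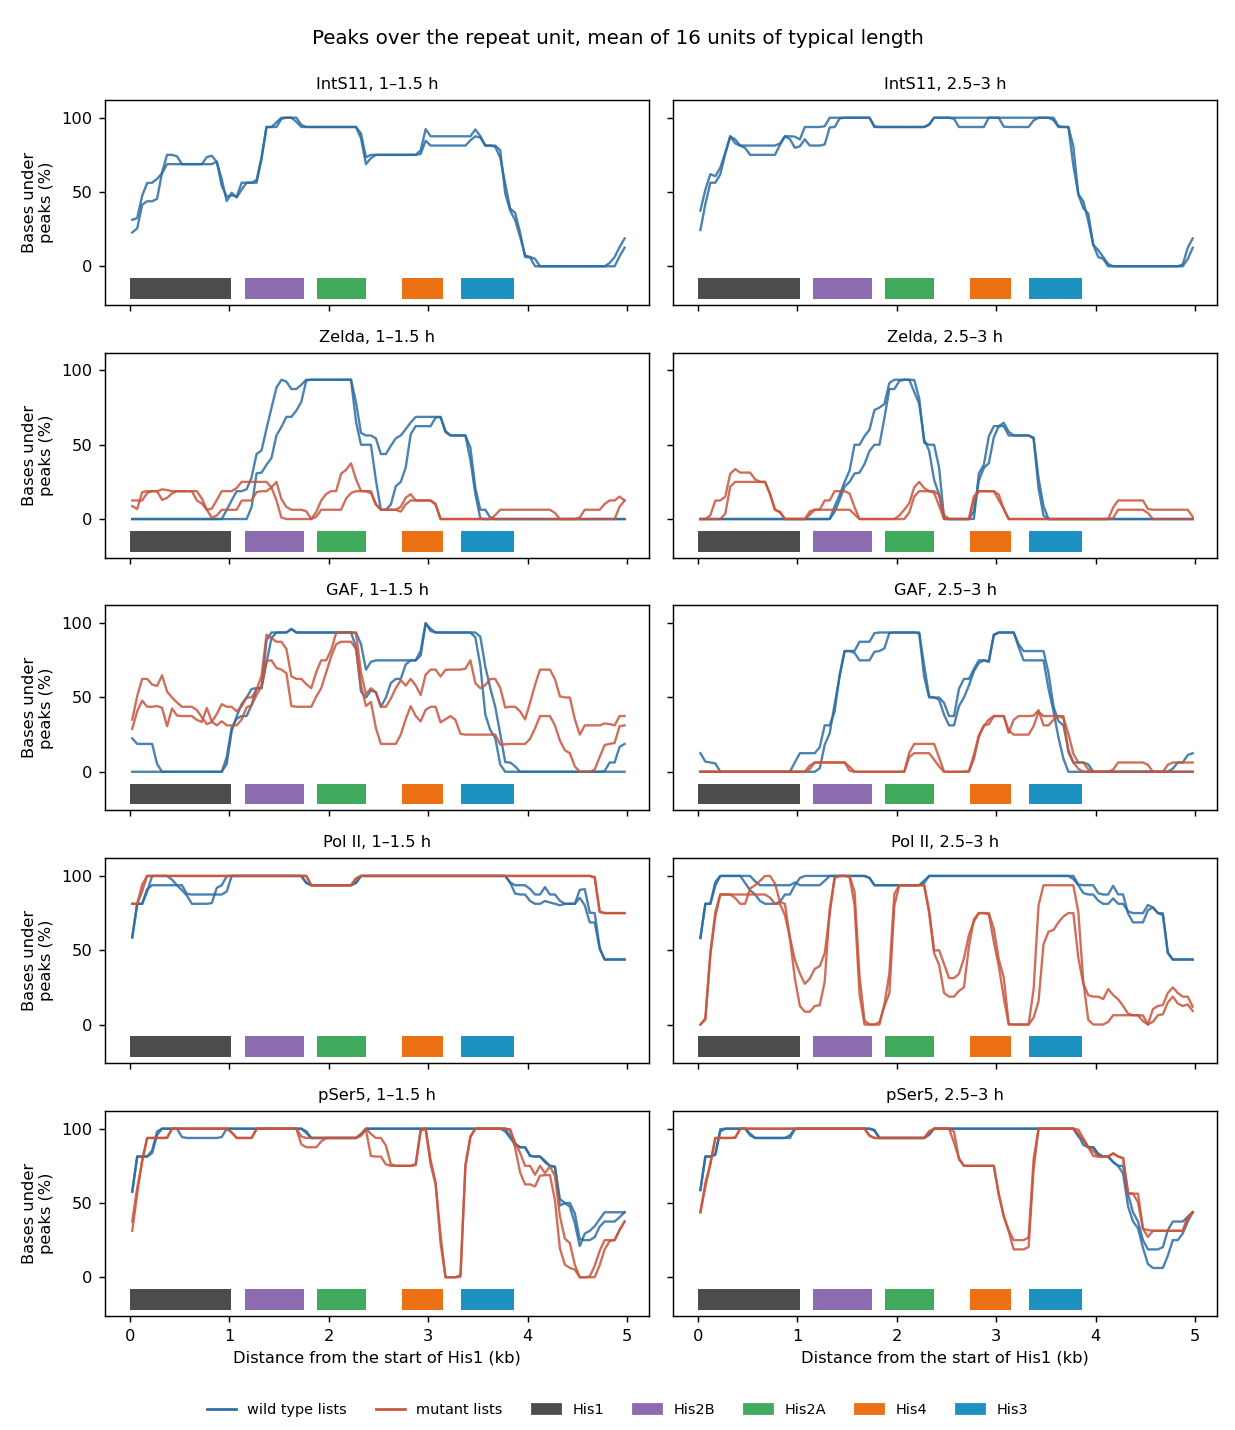
Share of 16 units of typical length with a peak at each position, in 50 bp bins from the start of His1 (x axis, kb; y axis, percent of bases under peaks), for each embryo list, with gene positions drawn below. IntS11 covered all 16 units near His2B at both stages and none at 4125 bp from the His1 start at 1–1.5 h or at 4175 bp at 2.5–3 h. The mutant pSer5 lists read 0% between His4 and His3 at 1–1.5 h, and 18.8% and 25.0% at 2.5–3 h, where wild-type lists stayed at 100%.

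In wild-type embryos the peaks of the different proteins were nested. In the earlier lists 99.9% of the locus bases under Zelda peaks in both lists also lay under IntS11 peaks, and they made up 45.4% of the IntS11 bases. For GAF the shares were 97.1% of the GAF bases and 69.8% of the IntS11 bases. All IntS11 bases lay under Pol II and under pSer5 peaks, of which they were 65.1% and 67.7%. Pol II peaks covered 83.3% and 82.4% of the whole locus in these lists, and pSer5 peaks 79.2% and 80.1%, so most bases of the locus lay under them in any case.

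In wild type Zelda, a zinc-finger pioneer factor of the zygotic genome, lay over most His2B to His2A and some His4 to His3 spaces. It covered less of the repeat in mutant embryos. In the earlier embryos Zelda peaks covered 37.7 and 30.4 kb of the locus in wild type and 13.9 and 12.8 kb in mutant lists. The values at 2.5–3 h were 21.80 and 21.48 kb against 10.4 and 7.33 kb. The genotypes did not overlap at either stage. The mean differences, mutant minus wild type, were −20.7 and −12.8 kb (two-sided exact permutation p = 0.333 at each stage, n = 2 lists per genotype).

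Wild-type Zelda peaks sat over His2B, His2A, His4 and His3 and left His1 almost free. In the earlier embryos 72 of 111 copies were bound, against 40.5% of all genes. They were 21 His2B, 20 His2A, 17 His4, 13 His3 and 1 His1 copies. Later, at 2.5–3 h, 59 copies were bound, against 37.6% of all genes, with 18 of 20 His2A copies and no His1 copy among them. The space between His2B and His2A was covered in full in both lists at 1–1.5 h, and its share under peaks was 66.1% ± 12.4 (SD, n = 2 lists) at 2.5–3 h.

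The space between His4 and His3 divided the units in wild type. Its middle base lay under a Zelda peak in the same 12 of 22 units in all 4 wild-type lists, and in the other 10 units it lay under none in any of them. In the 4 mutant lists none of the 22 spaces had a Zelda peak at its middle. The stretches without a peak there had medians of 4299.5 to 7245.5 bp in the mutant lists. The shortest measured 446 bp, more than the smallest gap of 259 to 273 bp in the wild-type Zelda lists.

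Of the 72 copies bound by Zelda in wild type at 1–1.5 h, 41 (56.9%) had no peak in either mutant list, against 90.4% of all bound genes, and 14 had a peak in both, against 5.81%. Of those bound at 2.5–3 h 42 of 59 copies (71.2%) were lost in this sense, against 77.6%, and 9 were kept, against 15%. The counts of copies with less of their length under peaks in both mutant lists than in either wild-type list were 62 at 1–1.5 h and 53 at 2.5–3 h, against 39.8% and 35.7% of all genes. Copies had a median of 41.6% of their length under wild-type peaks at 1–1.5 h and 0% under mutant peaks, while the median of all genes was 0% in both.

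Part of the mutant Zelda peaks lay outside the wild-type ones. Of the bases under peaks in both mutant lists, 51.6% lay under peaks of both wild-type lists at 1–1.5 h and 32.1% at 2.5–3 h. At 1–1.5 h, 6 copies were bound in both mutant lists and in no wild-type list, of 35 with no wild-type peak, against 1.1% of all genes with none. Of these, 5 were His1 copies. Later, 7 of 44 such copies were gained, against 0.671%, and 4 of them were His1. All 23 His1 copies were among these 44, as none had a peak in either wild-type list. At 1–1.5 h wild-type peaks touched only 3 and 1 of 23 His1 copies, so His1 also made up much of the 35. The His1 counts are to be read against that. More length under peaks in both mutant lists than in either wild-type list was found at 8 copies at 1–1.5 h and 7 at 2.5–3 h, against 0.878% and 0.962% of all genes, and 6 and 4 of these were His1. In the mutant 21 copies were bound at 1–1.5 h and 17 at 2.5–3 h, against 3.01% and 6.08% of all genes. The first His1 copy, His1:CG33801 (2L, 21416953 to 21417975), had no Zelda peak in any wild-type list and had 30.4% and 39.7% of its length under mutant peaks at 1–1.5 h. Mutant peaks were short, with medians of 354.5 and 354 bp at 1–1.5 h. The lists also shared fewer bases than those of wild type. Bases under peaks in both mutant lists were 36.7% of those under either at 1–1.5 h, against 79.4% in wild type.

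The Zelda difference did not keep its sign when only the longest peaks were used. The mutant lists had 2584 to 4509 peaks and the wild-type lists 10419 to 11681. When only the longest peaks of each list were kept, up to the number in the shortest list of the comparison, the difference turned to 1.71 kb at 1–1.5 h (exact permutation p = 1) and 6.36 kb at 2.5–3 h (p = 0.333), with 6 and 0 copies lost. That setting changes the number of peaks and selects them by length, and the effects of the 2 cannot be told apart. The window of the same length after the locus had 36.4 and 34.3 kb under wild-type Zelda peaks at 2.5–3 h, more than the locus itself, and 13.4 and 7.17 kb under mutant peaks.

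GAF, a factor that binds GA repeats, gave overlapping values of the genotypes at the earlier stage and separate ones at the later stage. The peaks of GAF at 1–1.5 h covered 55.1 and 48.0 kb of the locus in wild-type lists and 65.1 and 45.0 kb in mutant lists, so the genotypes overlapped. The mean difference of 3.54 kb was smaller than the spread between the mutant lists (exact permutation p = 1, n = 2 lists per genotype), and without mutant replicate 1 it was −6.51 kb. For GAF at 2.5–3 h the lists covered 40.5 and 43.0 kb for wild type and 11.3 and 13.4 kb for mutant embryos. That difference was −29.4 kb, without overlap (exact permutation p = 0.333).

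In wild type GAF bound the core histone genes and rarely His1. In the earlier embryos 92 of 111 copies were bound, against 25.1% of all genes, and 5 of them were His1 copies. Later, 80 copies were bound, against 27.1%, with all 22 His4 and all 20 His2A copies and no His1 copy. The spaces between His2B and His2A and between His4 and His3 were covered to 100% and 94.5% at 1–1.5 h, alike in both lists. At the later stage they had 92.5% ± 10.5 and 86.2% ± 2.08 (SD, n = 2 lists).

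In the earlier embryos mutant GAF peaks were more numerous, shorter and spread into His1. The locus held 74 and 68 peaks in the mutant lists and 36 and 40 in the wild-type lists, with median lengths of 647 and 463.5 bp against 1332.5 and 1099 bp. In the mutant 84 copies were bound, against 5.18% of all genes. Of the 92 copies bound in wild type 6 (6.52%) were lost, against 78.4% of all bound genes, and 70 were kept, against 16.2%. Less length lay under peaks in both mutant lists at 32 copies, against 23.1%. Without mutant replicate 1, the list with the longer coverage, 22 copies counted as lost.

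His1 was the 1 type with a higher mean GAF coverage in the mutant at this stage. His1 copies had 3.32% ± 3.25 of their length under wild-type peaks and 35.99% ± 6.79 under mutant peaks (SD, n = 2 lists each). All 10 copies gained, of 14 with no wild-type peak, were His1, against a gain at 1.16% of all genes with none. Wild-type peaks touched 9 and 6 of 23 His1 copies in the 2 lists. They touched every His2B, His2A and His4 copy and 22 of 23 His3 copies. Nearly all copies that could be gained were thus His1. Of the 24 copies with more length under peaks in both mutant lists than in either wild-type list, 18 were His1, and that count is to be read against 2.23% of all genes. At least 50% of the gene under peaks was reached in 3 gained copies, and with windows of 500 bp either side of gene ends none was gained. Such windows also take in peaks of neighbouring copies, which leaves few copies without a wild-type peak. The long space between His3 and the next His1 likewise had 2.24% ± 2.63 in wild type and 31.4% ± 15.2 in the mutant.

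GAF bound 27 copies in the mutant at 2.5–3 h, against 10.4% of all genes, of which 12 were His4, 12 His3, 2 His2A and 1 His2B. Of 80 copies bound in wild type, 49 (61.2%) were lost, against 56% of all bound genes, and 26 were kept, against 36.8%. By type, 19 of 20 bound His2B and 17 of 20 His2A copies were lost, against 10 of 22 His4 and 3 of 18 His3 copies. The space between His2B and His2A, 92.5% covered in wild type, had no peak in either mutant list. The space between His4 and His3 had 43.1% ± 7.24 (SD, n = 2 lists). A single copy, His2B:CG33908 (2L, 21428075 to 21428669), was gained, of 23 with no wild-type peak, against 0.429% of all genes with none. More length lay under peaks in both mutant lists at 4 copies, against 1.17% of all genes, and less at 71, against 22.8%. The mutant lists had 3599 and 5532 peaks, fewer than the 9062 and 8085 of wild type. The locus held 0.296% of the covered length of the mutant lists and 0.563% of that of wild type (means of 2 lists).

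**Figure D3:**
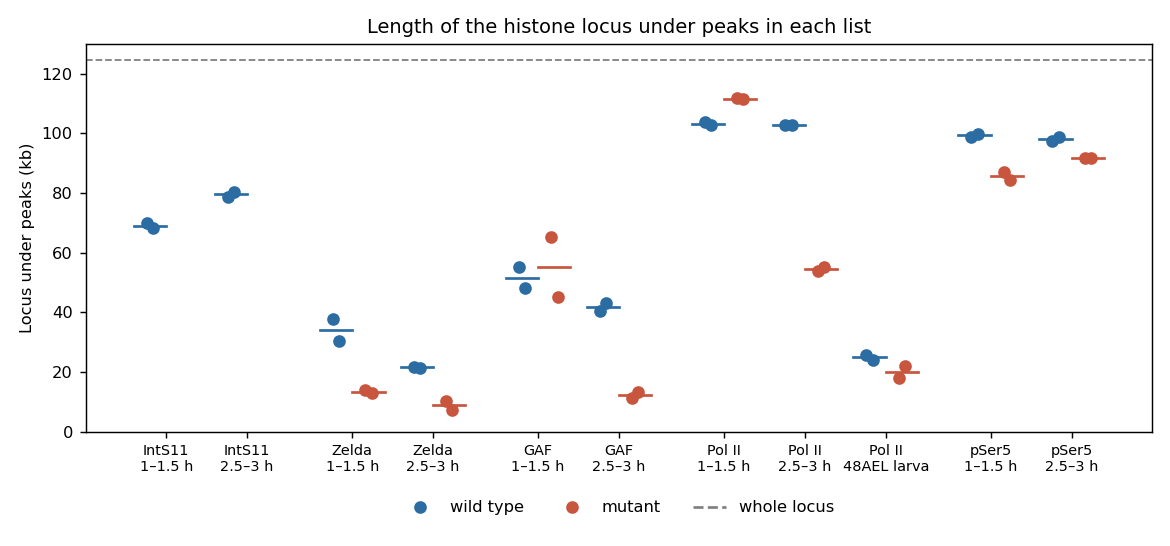
Length of the 124.7 kb locus (dashed line) under peaks in each list, in kb, by antibody and stage, with wild type in blue, mutant in red and a short line at each mean of 2 lists. The widest separation is that of Pol II at 2.5–3 h, at 102.9 kb in both wild-type lists against 53.9 and 55.3 kb in the mutant, while mutant Pol II lay above wild type at 1–1.5 h.

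Pol II filled the histone repeat in wild-type embryos and had opposite differences in the mutant at the 2 stages. At 1–1.5 h it covered 103.9 and 102.7 kb in wild type, against 111.8 and 111.5 kb in mutant lists. In the later embryos it covered 102.9 kb in both wild-type lists and 53.9 and 55.3 kb in the mutant lists. The mean differences were 8.30 kb and −48.3 kb, each without overlap (two-sided exact permutation p = 0.333, n = 2 lists per genotype). The difference between them, 56.6 kb, had an exact permutation p of 0.0556 over both stages, the smallest that 2 stages of 2 against 2 allow.

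Every copy carried Pol II in wild type, 111 of 111 at both stages, against 42.2% of all genes at 1–1.5 h and 48.4% at 2.5–3 h. All 111 were also bound in the mutant at 1–1.5 h, against 8.26% of all genes. They were thus kept, against 15.3% of all bound genes, and none was lost, against 79.5%. More length lay under peaks in both mutant lists at 15 copies, 14 of them His1, against 3.91% of all genes, and less at none, against 37.6%. In wild type all His2B, His2A and His4 copies and 22 and 21 of 23 His3 copies were already covered end to end. The same held for 9 of 23 His1 copies in each list, so almost only His1 had room for more length. Peaks of neighbouring units ran together in these lists. The locus held 10 and 9 mutant peaks against 24 and 27 in wild type, and 1 peak of 53781 bp in each mutant list lay over 53 copies. The space between His3 and the next His1 had 74.4% ± 2.50 of its length under peaks in wild type and 93.2% ± 0.00290 in the mutant (SD, n = 2 lists each). His1 was also covered further, with 86.0% ± 0.944 against 97.9% ± 0.123. The window after the locus had 40.9 and 33.4 kb under mutant and 28.2 and 25.5 kb under wild-type Pol II peaks.

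In the later embryos the mutant Pol II peaks were split over single genes, and 101 copies were bound, against 3.01% of all genes. The locus held 95 and 108 mutant peaks against 26 and 27 in wild type, with median lengths of 445 and 449 bp against 4220 and 4140 bp. All 101 were also bound in wild type and so kept, against 3.74% of all bound genes, and 5 were lost, against 91.7%. Less of the copy lay under peaks in both mutant lists than in either wild-type list at 104 copies (93.7%), against 47.3% of all genes. The median share of a copy under peaks was 100% in wild type and 75.4% in the mutant, and over all genes 2.50% and 0%. Of the bases under mutant peaks in both lists, 99.6% lay under wild-type peaks.

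The lost copies were His3:CG33818 (2L, 21459447 to 21459975) and 4 His4 copies, His4:CG33881, His4:CG33879, His4:CG33877 and His4:CG33869. The count was 10 without mutant replicate 2 and 55 with peaks of at least 500 bp alone, and was 0 with windows at gene ends. Those windows also take in peaks of neighbouring copies, so a loss is harder to call with them. The commonest mutant peaks lay over a single His3 copy (19 of 95 and 22 of 108 peaks) or a single His1 copy (15 and 24 peaks). His2A kept 86.3% ± 1.14 of its length under peaks (SD, n = 2 lists), His3 71.7% ± 16.4, His1 70.0% ± 3.60, His2B 61.1% ± 3.39 and His4 57.1% ± 2.19. The rank of the locus among genome windows was 5 in both mutant lists and 1 in both wild-type lists, where the flanking windows held 16.3 to 37.0 kb against 1.59 to 5.74 kb in the mutant.

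Mutant Pol II peaks left most of the spaces between copies free. The His2B to His2A space was covered in full in wild type and to 18.9% ± 0.110 in the mutant (SD, n = 2 lists). The His4 to His3 space was covered in full in wild type and not at all in the mutant, in each of 22 spaces. The stretches without a Pol II peak at its middle had medians of 416 and 325.5 bp in the mutant lists, and the shortest measured 273 and 264 bp. The smallest gap between any peaks was 281 and 274 bp in the wild-type lists, so the shortest of these stretches would not be seen there. With intervals up to 400 bp apart joined in every list and shorter ones left out, a setting chosen after seeing the data, the mutant values were 100% for His2B to His2A and 61.6% ± 22.9 for His4 to His3.

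The pSer5 form, linked to the start of transcription, covered most of the repeat in both genotypes. At 1–1.5 h it covered 98.8 and 99.9 kb in wild-type lists and 87.0 and 84.4 kb in mutant lists. In the later embryos it covered 97.4 and 98.9 kb against 91.8 and 91.7 kb. The differences were −13.6 and −6.47 kb without overlap (two-sided exact permutation p = 0.333 at each stage, n = 2 lists per genotype). Both were smaller than the Pol II difference at 2.5–3 h, but the antibodies were not tested against each other.

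All 111 copies carried pSer5 in wild type, against 50.3% of all genes at 1–1.5 h and 57.8% at 2.5–3 h. In the mutant 111 were bound at 1–1.5 h, against 13.4% of all genes, and so kept, against 20.3% of all bound genes, with none lost, against 66.7%. Later, 107 were bound in the mutant, against 18.1% of all genes. All of these were kept, against 28.4% of all bound genes, and 4 copies were lost, against 58%. The 4 lost copies were the same 4 His4 copies that lost Pol II at that stage, His4:CG33881 (2L, 21504377 to 21504789), His4:CG33879 (21509422 to 21509834), His4:CG33877 (21514466 to 21514878) and His4:CG33869 (21534085 to 21534610). The count of copies with less length under mutant pSer5 peaks was near the share of all genes at 1–1.5 h and below it at 2.5–3 h. At the earlier stage 53 copies had less length under peaks in both mutant lists, against 44.6% of all genes, and 22 of these were His4 and 22 His3. Later this held for 34 copies, against 53%. The His4 and His3 counts lie next to the His4 to His3 gap described below, so the limit on small gaps holds for them too. More length lay under peaks at 4 and 6 copies, all of them His1, against 5.13% and 3.73% of all genes. These counts were near those shares. In wild type every His2B, His2A and His4 copy and 21 or 22 of 23 His3 copies were covered end to end in each list. Almost only His1 copies thus had room for more length.

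The mutant pSer5 lists had a gap between His4 and His3. In the 22 spaces of that kind the middle base lay under a peak in every wild-type list. In the mutant at 1–1.5 h it lay under none in either list, and at 2.5–3 h in 6 and 5 of 22. The His2B to His2A space, the other divergent promoter region, had 97.5% ± 3.51 and 100% of its length under mutant peaks (SD, n = 2 lists). The mutant gaps between His4 and His3 had medians of 243.5 and 250 bp at 1–1.5 h, below the smallest gap of 329 and 323 bp in the wild-type lists. The later medians of 323 and 322 bp were next to the wild-type limits of 314 and 322 bp. Gaps below those limits could not have been seen in wild type. With intervals up to 400 bp apart joined, again a setting chosen after seeing the data, the mutant space was 100% covered at 1–1.5 h and 83.1% at 2.5–3 h. Whether the space differed between genotypes cannot be told apart from this limit.

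**Figure D4:**
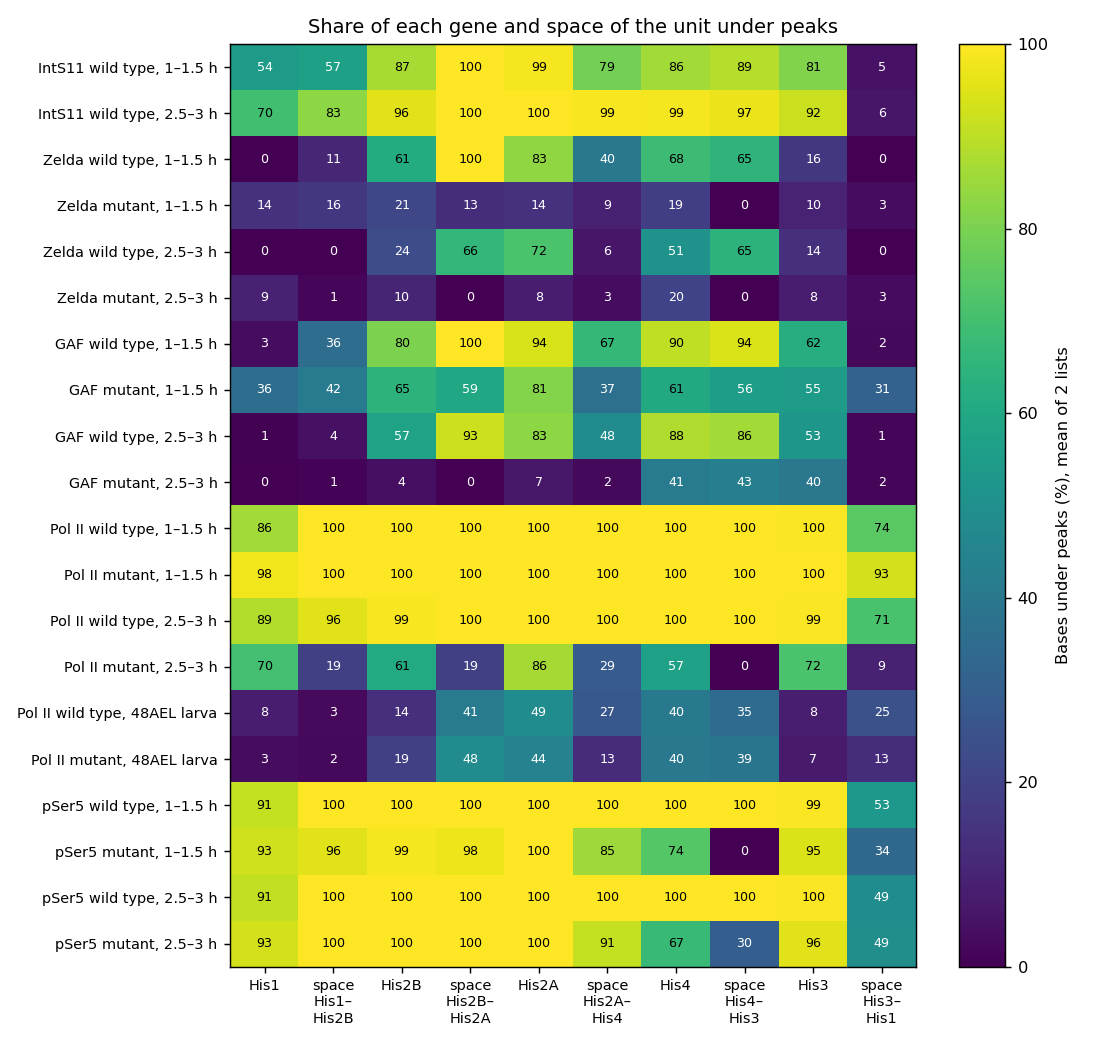
Share of each gene type and each space of the unit under peaks, in percent, as the mean of 2 lists, with groups in rows and unit parts in columns by rising coordinate. The Pol II and pSer5 rows of wild-type embryos are at or near 100 in every part but His1 and the space from His3 to His1. The His4 to His3 space reads 0 in the mutant for pSer5 at 1–1.5 h, for Pol II at 2.5–3 h and in both Zelda rows. The limit on small gaps named in the text holds for pSer5 and for the shortest Pol II stretches.

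Between the stages, wild-type coverage was close for the polymerase and lower at the later stage for the factors. In wild type the later minus the earlier stage was −0.427 kb for Pol II (exact permutation p = 1) and −1.18 kb for pSer5 (exact permutation p = 0.667). The Pol II value had the opposite sign without replicate 1 of 1–1.5 h, at 0.171 kb. For Zelda it was −12.4 kb and for GAF −9.80 kb, both without overlap (exact permutation p = 0.333, n = 2 lists per stage). In the mutant the stage difference was −57.0 kb for Pol II and −42.7 kb for GAF, against −4.50 kb for Zelda and 5.97 kb for pSer5, each without overlap (exact permutation p = 0.333).

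In larvae Pol II covered the repeat in short stretches and the genotypes lay close together. Coverage was 25.8 and 24.0 kb in wild type and 18.1 and 22.1 kb in the zygotic mutant, a difference of −4.82 kb without overlap (two-sided exact permutation p = 0.333, n = 2 lists per genotype). Of the 111 copies 47 were bound in wild type, against 31% of all genes, and 43 in the mutant, against 33.4%. His2A was the type bound most often, at 16 of 20 copies in wild type and 13 in the mutant. The space from His3 to His1 had 25.0% ± 0.398 of its length under peaks in wild type and 12.9% ± 0.0784 in the mutant (SD, n = 2 lists each).

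Lost and gained calls in the larval mutant were few and near the shares over all genes. Of the 47 copies bound in wild type 39 were kept, against 87.1% of all bound genes, and 1 was lost, against 2.84%. The lost copy was the last His1 copy, His1:CG33864 (2L, 21536346 to 21537368), with 25.4% and 18.7% of its length under wild-type peaks. Of 54 copies that could be gained 2 were, against 3.12%, His2B:CG33884 (21497745 to 21498339) and His2B:CG33878 (21512887 to 21513481). Leaving out single lists gave 2 to 7 lost and 3 to 8 gained copies, the highest of both without mutant replicate 2. Coverage by unit ran from 8.51% to 43.5% in wild type and from 5.52% to 39.0% in the mutant, with unit 4 the highest in both. More length lay under peaks in both mutant lists at 6 copies, against 8.21% of all genes, and less at 13, against 6.2%.

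Histone genes outside the repeat were also examined. The 6 replication-independent histone genes, His2Av, His3.3A, His3.3B, His4r, BigH1 and cid, encode histones made through the cell cycle or in the germ line. None carried IntS11 at 1–1.5 h and 5 did at 2.5–3 h, against 5.05% and 33% of all genes. In the 5 bound by Pol II in wild type, 3 lost it in the mutant at 1–1.5 h, with His2Av and His3.3A kept, and all 5 lost it at 2.5–3 h, against 79.5% and 91.7% of all bound genes. Zelda was lost at 5 of 5 bound genes at both stages, against 90.4% and 77.6% of all bound genes. GAF was lost at 3 of 3, against 78.4% and 56%. For pSer5 3 of 5 were lost at 1–1.5 h and 4 of 6 at 2.5–3 h, against 66.7% and 58%, with His2Av kept at both stages. With so few genes nothing is read from these counts. His2Av, the H2A.Z-type variant, had 74.1% and 100% of its length under Pol II peaks in wild type and 35.1% and 33.8% in the mutant at 1–1.5 h.

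Genes for the histone locus body and for histone message processing numbered 15 in the list. IntS11 bound 3 at 1–1.5 h, Slbp, Trf2 and Cpsf73, and 10 at 2.5–3 h, against 5.05% and 33% of all genes. Slbp encodes the protein that binds the histone stem-loop, and Trf2 a TBP-related factor used at the His1 promoter. Pol II was lost at 8 of 13 bound genes at 1–1.5 h, with Slbp, Clamp, Trf2 and Cpsf73 kept, and at 14 of 14 at 2.5–3 h, against 79.5% and 91.7% of all bound genes. For pSer5 7 of 13 and 8 of 14 were lost, against 66.7% and 58%. Zelda was lost at 11 of 11 and 8 of 10 bound genes at the 2 stages, against 90.4% and 77.6%. GAF was lost at 4 of 5 and 7 of 8, against 78.4% and 56%, with Trf2 kept at both. In larvae all 6 bound genes kept Pol II, against 87.1% of all bound genes. These counts too are small, and nothing is read from them. The gene of Slbp had 75.9% and 100% of its length under wild-type Pol II peaks at 1–1.5 h and 66.2% and 68.7% under mutant peaks, and at 2.5–3 h 100% in both wild-type lists and 0% in both mutant lists.

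IntS9 and IntS11, the genes of the Integrator endonuclease pair, had no IntS11 peak in both lists at either stage. The IntS11 gene had 24.4% and 34.4% of its length under wild-type and 69.3% and 70.4% under mutant Zelda peaks at 1–1.5 h. It kept GAF at 1–1.5 h, with 90.2% and 95.2% against 85.9% and 89.3%, and lost it at 2.5–3 h.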

How the data were processed

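Per the labels' protocols, embryos were fixed with formaldehyde and ChIP was done in duplicate with a magnetic-bead kit. Build dm6 and the tools MACS2 2.2.7.1, Bowtie2 2.2.5, deepTools 3.5.1, Trimmomatic 0.39 and SAMtools 1.18 stand in the submitters' processing notes. Their settings, peak thresholds and control libraries, and the treatment of reads that match several copies, are not given in the sources used here. The deposited files are 1 peak list per sample, as positions of start and end in base pairs, with no height or depth, and no interval that needs depth is given.

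Peaks on 7 chromosome arms were set against gene bodies of the Release 6 RefSeq table, which gives no strand or exons. Bound means an overlap of at least 1 bp in both lists of a group. Lost means bound in both wild-type lists and in neither mutant list, gained the opposite, kept a peak in all 4. Background shares use the same rule over 14238 genes. Covered lengths were compared by two-sided exact permutation with Python 3.11.15 and NumPy 2.4.6. The rules were tested on simulated data.

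Named copies are the first and last of each type, the copies of calls with fewer than 6 copies, and called members of the comparison lists. Members and lists were chosen with earlier results of these data known. Alternatives were joined peaks, peaks of at least 500 bp, equally long lists, 50% of a gene, windows of 500 bp at gene ends, a wider locus, a replicate block and leaving out single lists. The copies lie close together, so windows at gene ends also take in peaks of neighbouring copies. Lost and gained copies are harder to call with them. Promoter sequences were planned and not used here.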

Additional observations from a re-analysis of the deposited data

Results flagged for a closer look

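The Pol II difference between genotypes over the histone locus had opposite signs at the 2 stages, with 8.30 kb (mutant minus wild type) at 1–1.5 h and −48.3 kb at 2.5–3 h. Both mutant lists lay above the wild-type lists at 1–1.5 h and below them at 2.5–3 h. The difference of these differences was 56.6 kb (two-sided exact permutation within stage, p = 0.0556, the smallest possible). Its cause was not tested. For GAF the same quantity was 32.9 kb (exact permutation p = 0.167), for Zelda −7.92 kb (p = 0.556) and for pSer5 −7.15 kb (p = 0.444). The mutant Pol II lists of 2.5–3 h were also shorter as a whole. The locus held 1.56% of their covered length, against 0.959% in wild type, so the Pol II difference there is not particular to the locus. At 1–1.5 h the locus held close shares of the covered length, 1.43% in mutant and 1.47% in wild-type lists. The Pol II difference at 1–1.5 h is thus not particular to the locus either.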

How the results depend on the processing

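Covered-length differences between genotypes kept their sign in 77 of 81 alternative values and those between stages in 79 of 81. With equally long lists the Zelda difference was 1.71 kb at 1–1.5 h and 6.36 kb at 2.5–3 h. GAF at 1–1.5 h was −6.66 kb with peaks of at least 500 bp, and −6.51 to 13.6 kb when single lists were left out, negative without mutant replicate 1. The stage difference of wild-type Pol II was 0.313 kb with joined peaks and −1.03 to 0.171 kb with single lists left out. With the replicate block, lists paired by a number that the labels do not explain, each difference kept its value (Zelda at 1–1.5 h −20.7 kb) and the smallest p that 2 pairs allow is 0.5.

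Copies lost moved by over 1.5 times in 24 of 81 alternative values. With 50% of the gene under peaks the counts were 21 for Zelda at 2.5–3 h, 11 for GAF at 1–1.5 h, 10 for Pol II at 2.5–3 h, 1 for pSer5 at 1–1.5 h and 0 in larvae. With windows at gene ends, which also take in peaks of neighbouring copies, 0 were lost for Pol II and pSer5 at 2.5–3 h. The counts with these windows were 2 for GAF at 1–1.5 h and 3 in larvae. With joined peaks they were 8 for Pol II at 2.5–3 h and 0 in larvae. Peaks of at least 500 bp gave 10 for GAF at 1–1.5 h, 55 for Pol II at 2.5–3 h and 6 for pSer5 at 1–1.5 h. Equally long lists gave 6 and 0 for Zelda, 4 for pSer5 at 1–1.5 h and 3 in larvae. Leaving out single lists gave 6 to 22 for GAF at 1–1.5 h, 5 to 10 for Pol II at 2.5–3 h and 2 to 7 in larvae.

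Copies gained moved in 24 of 81. For Zelda at 1–1.5 h they were 2 with 50% of the gene, 1 each with gene-end windows, joined peaks and peaks of at least 500 bp, 13 with equally long lists and 6 to 12 without single lists. At 2.5–3 h they were 2 with 50% of the gene, 3 with joined peaks, 1 with peaks of at least 500 bp, 11 with equally long lists and 7 to 11 without single lists, the highest of both stages without mutant replicate 2. For GAF at 1–1.5 h they were 3 with 50% of the gene, 0 with gene-end windows, 5 with joined peaks and 3 with peaks of at least 500 bp. GAF at 2.5–3 h gave 2 with 50% of the gene, 0 with joined peaks and with peaks of at least 500 bp, and 1 to 2 without single lists, 2 without mutant replicate 1. Larvae gave 0 with 50% of the gene, 1 with gene-end windows, 1 with equally long lists and 3 to 8 without single lists. Leaving out a list loosens both rules. The cause of the other shifts was not tested. Peak positions without heights limit every value to presence and extent, and near-identical copies limit what can be said of a single copy.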
